A study of Bos taurus and Ovis aries and Capra hircus with 27 samples.

Results

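The protein kinases of the goat (Capra hircus) were examined as a group of 188 gene models among the 22131 models that had expression values in goat. A model was taken as a kinase where its protein, available for 18216 of the models (82.3%), held the letters HRD, then L or I, then K or A, any 2 residues and N, followed within 60 residues by DFG. This rule reads protein sequence only and uses no expression value. A further 2 matching models were marked as extra copies of another model and were left out. The models carry identifiers of the human or cattle protein they were built on (101 human, 86 cattle and 1 predicted without such a protein), each with the prefix GOAT, which is left off here. Coordinates are those in the headers of the deposited proteins, and the genome build behind them is not stated there.

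The study measured RNA of farm vertebrates from high altitude and of their lowland relatives. Goat RNA used here came from heart, liver and tissue labelled kidney, with 3 libraries for each. The study states that the heart libraries also have a second set of records for the same samples. Whether the heart libraries were handled apart from the others was not tested. The goats are labelled as an indigenous strain of about 3 years of age from Sichuan province, and the study's methods describe 3 unrelated adult females per population. No treatment, allele or transgene is given for any of the 9 libraries. The comparison of these tissues asks in which of them each kinase was transcribed most, without reference to altitude.

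A protein kinase moves a phosphate from ATP to a serine, threonine or tyrosine of another protein and so switches it on or off. The HRD motif lies in the catalytic loop, where the aspartate acts as the base of the reaction, and the DFG motif holds the magnesium that positions ATP. Receptor kinases at the cell surface pass signals to cytoplasmic tyrosine kinases and to relays such as the MAP kinases, while other families control the cell cycle, energy use, the cytoskeleton and the response to stress. In heart, calcium and calmodulin dependent kinases act on contraction, and in liver the receptors of growth factors and insulin steer metabolism and regrowth.

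The loop sequences are shown because they separate most of the tyrosine kinases from the rest. Of the 188 proteins, 47 had the first of the following 8-residue loops, and the next most common were found in 15, 11, 9 and 9 proteins. The classes are told apart by the pair of residues after the leucine or isoleucine that follows HRD.
tyrosine kinases: HRDLAARN
CaMKII, AMPK and others: HRDLKPEN
RSK, p38 and others: HRDLKPSN
checkpoint and others: HRDIKPEN
CDK and others: HRDLKPQN
The tyrosine type of loop, with AA after the leucine or isoleucine, was present in 48 proteins and the usual serine/threonine type, with KP there, in 76. A further 28 had KG or KA, common among relatives of the yeast STE kinases, 12 had KS and 24 had another form. The other forms included HRDLATRN in 4 proteins and HRDIAVRN in the FAK type kinase, so the tyrosine type did not hold every assigned tyrosine kinase. The distance from HRD to DFG was 20 residues at the median and 51 at most, and the proteins were 171 to 2063 residues long with a median of 675.5. Short motifs elsewhere in the catalytic region placed 157 proteins (83.5%) in 50 families. These names rest on motifs alone and were not matched to a protein table, so no gene symbol is given to any model. A stretch of 20 hydrophobic residues, of the kind that crosses a membrane, was found in all 32 proteins assigned to receptor tyrosine kinase families and in both assigned to receptor serine/threonine kinases. None of the other 154 kinases had such a stretch, although the family motifs did not use it.

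The tissue labels were checked by protein motifs, since no symbols were paired with the models. Phospholamban, the regulator of the calcium pump of heart muscle, was at 2800, 2814 and 4038 FPKM (fragments scaled by transcript length and library size) in the heart libraries and was listed at 0 in the liver libraries. In the libraries labelled kidney it was between 15.1 and 18 FPKM. Albumin, the main plasma protein made by liver, was at 11680 and 9247 FPKM in liver replicates 2 and 3 but was listed at 0 in liver replicate 1. In the libraries labelled kidney albumin was between 9.68 and 76.2 FPKM.

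Aquaporins, the water channels that are abundant in kidney tubules, gave summed levels over 9 models of 53.2 to 84.4 FPKM in the libraries labelled kidney, 58.2 to 87 in heart and 352 to 542 in liver. At 1 FPKM or more, 3 of the 9 had their highest mean in liver, 1 in heart and 1 in the labelled kidney. The last, ENSBTAP00000011196, had means of 2.91, 1.22 and 34.5 FPKM in heart, liver and the labelled kidney. A paired tyrosine motif of immune receptor adaptors, searched in proteins of under 300 residues, was held by 13 models, and their summed level was 621 to 851 FPKM in the libraries labelled kidney, 68.5 to 88.8 in heart and 27.6 to 44.4 in liver. Of these 13 models 7 had their highest mean in the libraries labelled kidney at 1 FPKM or more and 2 had it in heart, another 2 were highest in the labelled kidney at means below 0.08 FPKM, and 2 were listed at 0 throughout. These libraries are therefore called by their label throughout, and the part of these markers in the kinase results was not tested.

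**Figure D1:**
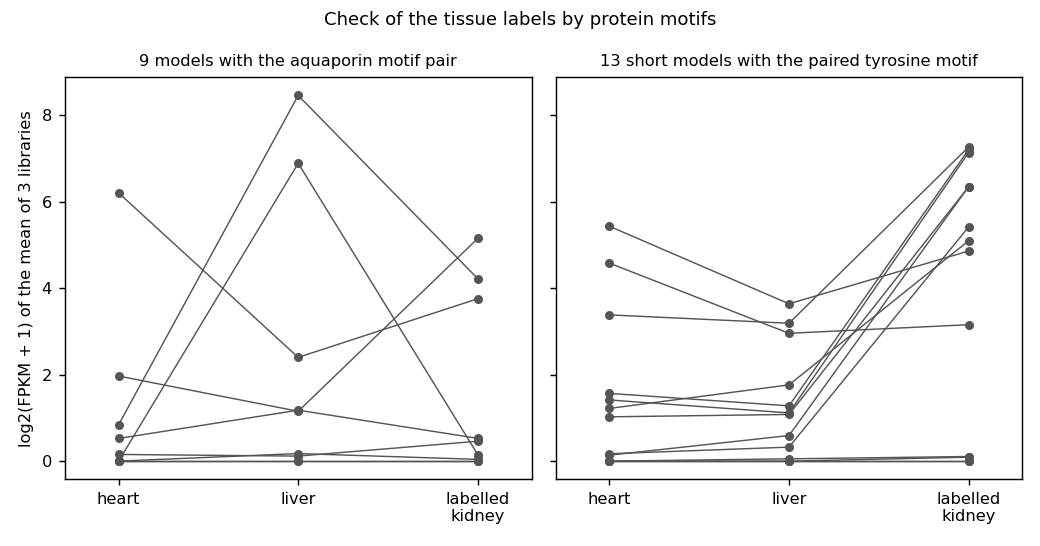
Each line is 1 model, drawn over its mean of 3 libraries in heart, liver and the libraries labelled kidney on a log2(FPKM + 1) axis, for 9 aquaporin models on the left and 13 models with the immune receptor motif on the right. Of the immune receptor motif models 7 peak in the libraries labelled kidney at 1 FPKM or more and 2 in heart. Of the aquaporin models 3 peak in liver at 1 FPKM or more, 1 in heart and 1 in the libraries labelled kidney.

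The deposited values are log2(FPKM + 1) without read counts, so the depth behind each value is unknown. Pearson correlations of log2(FPKM + 1) over the kinases were 0.92 to 0.99 between libraries of 1 tissue and 0.55 to 0.69 between tissues. The 10 highest models of all kinds took 27% ± 1.11 (SD, n = 3) of the summed FPKM in heart, 15.5% ± 3.7 in liver and 15% ± 3.71 in the libraries labelled kidney. Because FPKM are shares of a library, a large share in few models lowers the others. In tissue RNA, fewer cells of a type and less RNA per cell cannot be told apart.

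Kinases were transcribed more broadly than the models as a whole. Of the 188 kinases, 116 (61.7%) exceeded 0.5 FPKM in all 9 libraries, beside 43.6% of all models. A further 17 exceeded it in no library, and 36 reached at least 5 FPKM in every library. Together the kinases took 0.134%, 0.168% and 0.152% of the summed FPKM in the heart libraries and 0.159%, 0.199% and 0.207% in the liver libraries. In the libraries labelled kidney the shares were 0.34%, 0.40% and 0.428%, above every heart and liver library.

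The mean kinase share was 0.151% ± 0.0173 (SD, n = 3) in heart, 0.188% ± 0.0258 in liver and 0.389% ± 0.0452 in the libraries labelled kidney. An exact permutation test of 3 libraries against 3 (2-sided) gave p = 0.1 for each tissue against the labelled kidney, the smallest value it can give, and p = 0.2 for heart against liver. That test did not use the replicate numbers, and within each of the 3 same-numbered pairs the share was higher in liver than in heart. Flipping the signs of the 3 paired differences gave an exact permutation p = 0.25 for each of the 3 comparisons, the smallest value that 3 pairs allow. Within the kinase FPKM, the tyrosine type took 18% ± 0.788 in heart, 22.1% ± 2.37 in liver and 29.5% ± 1.48 in the libraries labelled kidney (exact permutation p = 0.1 for each comparison, the smallest possible). These shares leave out tyrosine kinases with another form of loop, such as the FAK type kinase.

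**Figure D2:**
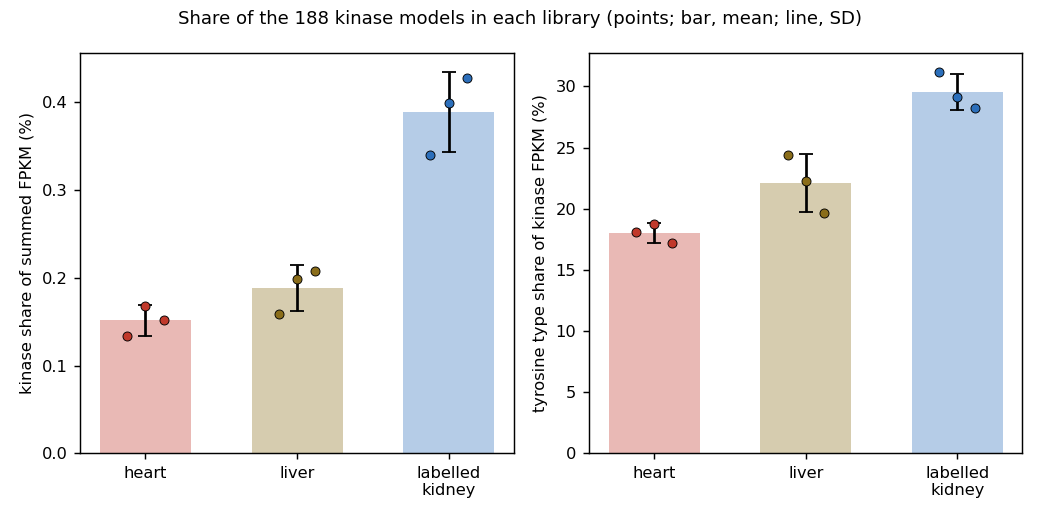
Points are libraries, bars are means of 3 libraries and lines are SDs, for the share of the summed FPKM held by the 188 kinases (left, in percent) and the share of the kinase FPKM held by kinases with the tyrosine type of loop (right, in percent). The libraries labelled kidney lie above all heart and liver libraries in both panels, with means of 0.389% and 29.5%.

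Differences between tissues were tested with limma on log2(FPKM + 1) over the 13634 models that exceeded 0.5 FPKM in at least 3 of the 9 libraries, with p-values adjusted over all of them and a threshold of 0.05. This filter kept 166 of the 188 kinases. Between heart and liver 77 kinases (46.4%) passed, beside 49.2% of all models tested. Of these, 40 were higher in heart (all models 29.6%) and 37 higher in liver (all models 19.6%). The median difference, heart minus liver, was -0.11 over the kinases and 0.1 over all models.

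Between heart and the libraries labelled kidney 108 kinases passed, beside 63.2% of all models, of which 19 were higher in heart (all models 17.9%) and 89 higher in the libraries labelled kidney (all models 45.3%). Between liver and the labelled kidney 126 kinases (75.9%) passed, beside 65% of all models, with 21 higher in liver (13.4%) and 105 higher in the labelled kidney (51.6%). The median difference, labelled kidney minus heart, was 0.75 over the kinases and 0.55 over all models. For labelled kidney minus liver it was 0.96 over the kinases and 0.69 over all models. These comparisons share libraries and are given side by side only.

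The numbers of calls in each direction depended on how libraries were scaled. A scaling of the libraries by their median ratios to the average library brought the median difference of all models to within 0.05 of 0. After it 36 kinases were higher in heart than liver (all models 27%) and 49 higher in liver (26.8%). Against the labelled kidney 41 were higher in heart (29%) and 64 in the labelled kidney (29.1%). For liver against the labelled kidney, 37 (26.6%) and 56 (25.3%) were higher in each. After this scaling the median kinase was still 0.25 higher in the labelled kidney than in heart and 0.26 higher than in liver, on the log2 scale.

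A kinase was called elevated in a tissue where it was higher there in both comparisons that involve the tissue. By this rule 16 were elevated in heart (14.5% of all models were), 16 in liver (9.59%) and 76 in the libraries labelled kidney (34.2%). Under median-ratio scaling the numbers were 26 in heart (19.5%), 25 in liver (15.4%) and 39 in the labelled kidney (16.6%), and those 39 were all among the 76. A fit that left out the libraries labelled kidney called 15 of the 16 heart kinases and all 16 of the liver kinases between heart and liver. These kinases had been selected on the same heart and liver values, so that fit is not an independent check of them.

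**Figure D3:**
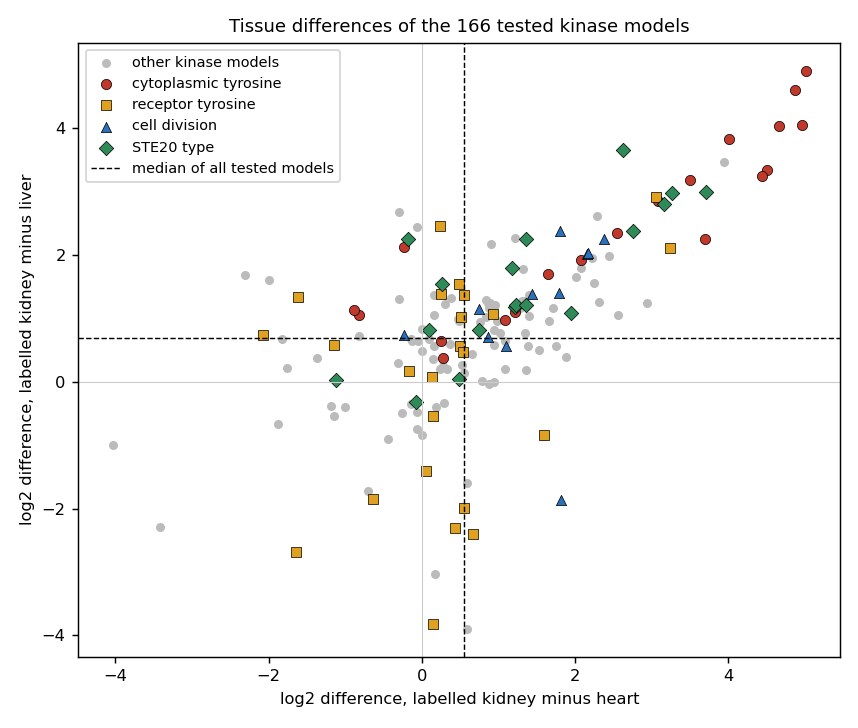
Each point is 1 of the 166 tested kinases, placed by its log2 difference labelled kidney minus heart (horizontal) and labelled kidney minus liver (vertical), with cytoplasmic tyrosine, receptor tyrosine, cell division and STE20 type kinases marked, and dashed lines at the medians of all tested models (0.55 and 0.69). Most cytoplasmic tyrosine kinases lie in the upper right, and receptor tyrosine kinases lie on both sides of 0.

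Receptor tyrosine kinases bind growth factors, ephrins and other signals outside the cell. Of the 32 receptors 24 passed the filter on low values, and 8 of these were elevated in liver, 3 in heart and 5 in the libraries labelled kidney (9, 3 and 1 under median-ratio scaling). Over all models the shares were 9.59%, 14.5% and 34.2% (15.4%, 19.5% and 16.6% under median-ratio scaling). The liver group held both members assigned to the EGF receptors, which bind epidermal growth factor and its relatives, the receptor of the MET family, which binds hepatocyte growth factor or its relative, 2 of 3 FGF receptors, 2 of 11 ephrin receptors and 1 of 3 VEGF receptors.

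For the MET receptor ENSP00000317272 the values were 0.233, 0.743 and 0.395 FPKM in heart, 11.5, 10.8 and 11.2 in liver and 1.88, 1.36 and 0.76 in the libraries labelled kidney. Every liver library was above every other library, and liver exceeded heart with a log2 difference of 3.07 ± 0.22 (SE, adjusted p = 2.61e-06) and the labelled kidney with a log2 difference of 2.41 ± 0.22 (SE, adjusted p = 1.49e-05). The EGF receptor ENSBTAP00000015445 stood at 0.876, 1.65 and 1.32 FPKM in heart, 10.9, 11.9 and 21.3 in liver and 3.1, 1.34 and 1.93 in the libraries labelled kidney. Its liver libraries also lay above all others, although they ranged more widely than those of MET. Liver exceeded heart with a log2 difference of 2.74 ± 0.3 (SE, adjusted p = 5.17e-05). Its relative ENSBTAP00000029056 was at 10.5, 11.9 and 14 FPKM in heart, 33.4, 29.9 and 17.2 in liver and 2.83, 4.53 and 2.42 in the libraries labelled kidney, so that heart was intermediate and the groups did not overlap. The log2 difference was 2.69 ± 0.28 (SE, adjusted p = 4.17e-05) for liver over the labelled kidney and a log2 difference of 1.04 ± 0.28 (SE, adjusted p = 0.0129) for liver over heart.

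Ephrin receptors guide contacts between neighbouring cells. The ephrin receptor ENSBTAP00000008354 (scaffold 1205, 2355673 to 2369842, plus strand) had 0, 0 and 0.0239 FPKM in heart, 21.8, 16.8 and 8.47 in liver and 0.349, 0 and 0.0209 in the libraries labelled kidney, where a 0 is a listed value. All liver libraries were above all others, with a log2 difference of 3.96 ± 0.3 (SE, adjusted p = 3.92e-06) for liver over heart. In the opposite direction the ephrin receptor ENSBTAP00000013238 had 6.77, 9.51 and 8.33 FPKM in heart, 0.511, 0.287 and 0.137 in liver and 1.25, 1.67 and 0.696 in the libraries labelled kidney. All heart libraries were above all others, with a log2 difference of 2.81 ± 0.22 (SE, adjusted p = 4.95e-06) for heart over liver. Of the 11 ephrin receptors 2 were elevated in liver, 1 in heart and 2 in the libraries labelled kidney (3, 1 and 0 under median-ratio scaling). Beside these, 9.59%, 14.5% and 34.2% of all models were elevated there (15.4%, 19.5% and 16.6% under median-ratio scaling). A further 2 were tested and elevated in no tissue, and 4 did not pass the filter.

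Receptors of fibroblast growth factors were split between tissues. ENSP00000366412 stood at 0, 0.0261 and 0.13 FPKM in heart, 6.27, 5.45 and 3.83 in liver and 0.447, 1.16 and 0.158 in the libraries labelled kidney, and liver exceeded heart with a log2 difference of 2.54 ± 0.25 (SE, adjusted p = 2.41e-05). Its family member ENSP00000309878 was also elevated in liver, with means of 0.184, 5.53 and 2.57 FPKM in heart, liver and the labelled kidney. The third, ENSBTAP00000020550, was lowest in liver, at 8.64, 11.1 and 9.65 FPKM in heart, 1.23, 1.54 and 1.16 in liver and 9.27, 15.1 and 11.3 in the libraries labelled kidney, and its liver libraries overlapped with no other group. Its log2 difference was 2.22 ± 0.21 (SE, adjusted p = 1.84e-05) for heart over liver.

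The insulin receptor family had 2 members by motif, and which receptor of the family each of them is was not determined. ENSBTAP00000028690 was at 18.2, 22.5 and 16.8 FPKM in heart, 1.68, 1.64 and 1.52 in liver and 5.1, 6.9 and 4.86 in the libraries labelled kidney. Heart was above both other tissues in every library, and the log2 difference was 2.94 ± 0.19 (SE, adjusted p = 1.38e-06) over liver. The other member, ENSP00000357178, was listed at 0 in heart and liver and averaged 0.159 FPKM in the labelled kidney. Receptors of vascular endothelial growth factor, which act in blood vessels, showed 3 different patterns. ENSP00000263923 had means of 15.1, 15.4 and 16.2 FPKM in heart, liver and the labelled kidney. On the deposited scaling this was the smallest range of tissue means of any kinase at or above 5 FPKM in every library. With median-ratio scaling it was called higher in liver than in the labelled kidney. Its log2 difference, liver minus labelled kidney, was then 0.77, beside -0.074 on the deposited scaling. ENSBTAP00000053725 was elevated in heart (means 9.72, 2.15 and 3.72 FPKM) and ENSBTAP00000039997 in liver (0.741, 3.85 and 0.815 FPKM). The TIE receptor ENSP00000383977, another receptor of blood vessels, was among the 5 kinases with the smallest range, with means of 11.8, 8.92 and 10.7 FPKM.

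Of the 4 receptors assigned to the PDGF and KIT family, ENSP00000241453 was at 0.109, 0.0984 and 0.217 FPKM in heart, 0.283, 0.177 and 0.317 in liver and 11.2, 5.98 and 8.9 in the libraries labelled kidney. The libraries labelled kidney did not overlap with the others, with a log2 difference of 3.05 ± 0.21 (SE, adjusted p = 2.39e-06) over heart. The AXL and MER type receptor ENSP00000295408, of a family that takes part in the removal of dying cells, had means of 1.98, 6.63 and 28.7 FPKM and was elevated in the labelled kidney, but not under median-ratio scaling. Both receptor serine/threonine kinases, of the TGF-beta and activin type, passed the filter. ENSBTAP00000026423 had means of 15.9, 16.1 and 38.1 FPKM and was elevated in the labelled kidney under the deposited scaling but not under median-ratio scaling, and ENSBTAP00000024108 was elevated in no tissue.

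Cytoplasmic tyrosine kinases pass on signals from receptors that lack a kinase of their own. All 20 were tested, and 15 were elevated in the libraries labelled kidney (34.2% of all models were), 1 in heart (14.5%) and none in liver (9.59%). With median-ratio scaling 14 were elevated in the labelled kidney and 3 in heart, beside 16.6% and 19.5% of all models. The median difference was 2.82 for labelled kidney minus heart and 2.3 for labelled kidney minus liver, beside 0.55 and 0.69 over all models. The 15 were all 4 of the JAK family, both of the SYK and ZAP70 family, both of the CSK family, 3 of 5 of the TEC family, the FAK type kinase, and 1 each of the FES and FER, ABL and ACK families. The summed level of the 13 immune receptor motif models moved with them (621 to 851 FPKM in the libraries labelled kidney and at most 88.8 elsewhere), and its part in the result was not tested.

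SYK and ZAP70 kinases bind phosphorylated immune receptors. ENSBTAP00000007743 (scaffold 693, 902009 to 919684, plus strand) had 0.816, 0.334 and 0.183 FPKM in heart, 1.02, 0.414 and 0.261 in liver and 66.7, 34.3 and 39.4 in the libraries labelled kidney. The labelled kidney libraries were far above all others, and within each tissue replicate 1 was the highest. The log2 difference was 5.01 ± 0.3 (SE, adjusted p = 1.08e-06) over heart and a log2 difference of 4.9 ± 0.3 (SE, adjusted p = 1.23e-06) over liver. The other member, ENSBTAP00000048711, was at 1.04, 1.29 and 1.1 FPKM in heart, 2.0, 2.64 and 5.01 in liver and 47.3, 70.9 and 83.8 in the libraries labelled kidney, again with no overlap and with a log2 difference of 4.96 ± 0.29 (SE, adjusted p = 1.08e-06) over heart.

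CSK kinases hold the SRC family in check by phosphorylating its tail. ENSP00000378485 stood at 0.344, 0.525 and 0.413 FPKM in heart, 1.06, 0.736 and 0.454 in liver and 69.2, 31.8 and 30.6 in the libraries labelled kidney. Its labelled kidney libraries varied more than its others but overlapped with none of them, with a log2 difference of 4.87 ± 0.3 (SE, adjusted p = 1.37e-06) over heart. ENSBTAP00000028559, the other member, had the highest mean of all 188 kinases in the labelled kidney. Its values were 4.97, 8.64 and 8.61 FPKM in heart, 15, 21.4 and 30.6 in liver and 96.4, 104 and 118 in the libraries labelled kidney, and the labelled kidney exceeded heart with a log2 difference of 3.7 ± 0.29 (SE, adjusted p = 5.41e-06).

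TEC kinases act below antigen receptors of lymphocytes. ENSBTAP00000030121 was at 0.946, 1.35 and 1.53 FPKM in heart, 1.82, 2.21 and 3.86 in liver and 47.8, 67.5 and 55.6 in the libraries labelled kidney, with a log2 difference of 4.66 ± 0.25 (SE, adjusted p = 5.31e-07) over heart. ENSP00000398655 followed the same order at lower levels, with 0.469, 0.261 and 0.326 FPKM in heart, 0.94, 0.246 and 0.466 in liver and 21.6, 23 and 17.7 in the libraries labelled kidney and a log2 difference of 4.0 ± 0.2 (SE, adjusted p = 4.19e-07). Not all of the family did so. ENSP00000370912 was highest in heart, at 14.1, 14.3 and 15.6 FPKM in heart, 0.933, 1.94 and 8.91 in liver and 8.31, 7.77 and 6.35 in the libraries labelled kidney, with a log2 difference of 2.03 ± 0.49 (SE, adjusted p = 0.00736) for heart over liver, and ENSP00000308774 was low in every tissue with means of 0.669, 0.562 and 1.02 FPKM.

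JAK kinases sit on the receptors of cytokines. ENSP00000391676 had 0.389, 0.682 and 0.327 FPKM in heart, 1.66, 1.48 and 4.8 in liver and 26.2, 33 and 33.7 in the libraries labelled kidney, and its labelled kidney libraries lay above the rest, with a log2 difference of 4.45 ± 0.31 (SE, adjusted p = 2.92e-06) over heart. ENSP00000343204 was the member most abundant in heart and liver, at 19.8, 24.6 and 22.5 FPKM in heart, 20.6, 21 and 22.4 in liver and 77.7, 69.9 and 67 in the libraries labelled kidney. It exceeded heart in the labelled kidney with a log2 difference of 1.64 ± 0.16 (SE, adjusted p = 2.83e-05). FAK type kinases join adhesion sites to the cytoskeleton, and ENSBTAP00000007819 of that family (loop HRDIAVRN) had 1.1, 1.25 and 1.91 FPKM in heart, 2.93, 7.0 and 4.03 in liver and 45.7, 56.9 and 58.6 in the libraries labelled kidney. No heart or liver library reached the labelled kidney libraries, and the log2 difference was 4.5 ± 0.27 (SE, adjusted p = 1.18e-06) over heart. Outside the 15, the ABL kinase ENSBTAP00000023920 was elevated in heart with means of 16.2, 3.77 and 8.83 FPKM, and the ACK kinase ENSBTAP00000043771 was lowest in liver with means of 14.6, 2.06 and 12.7 FPKM.

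MAP kinases relay signals in a chain of kinases that act on each other. Of 16 members of these pathways 15 were tested, and 4 were elevated in liver (9.59% of all models were) and 4 in the libraries labelled kidney (34.2%). With median-ratio scaling 6 were elevated in liver, 1 in the labelled kidney and 3 in heart, beside 15.4%, 16.6% and 19.5% of all models. The p38 kinase ENSBTAP00000013198, a stress activated MAP kinase, was at 0.296, 0.202 and 0 FPKM in heart, 32.4, 23 and 20.9 in liver and 0.559, 1.0 and 0.704 in the libraries labelled kidney. It had the largest difference of any kinase in favour of liver, a log2 difference of 4.49 ± 0.21 (SE, adjusted p = 1.62e-07) over heart and a log2 difference of 3.9 ± 0.21 (SE, adjusted p = 6.1e-07) over the labelled kidney. The other p38 kinase, ENSBTAP00000023988, was among the 8 kinases with the highest mean and was at 18.3 FPKM or more in every library. It was elevated in no tissue on the deposited scaling but in liver under median-ratio scaling.

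ASK kinases stand at the top of the p38 and JNK chains. ENSP00000345629 was at 0.0182, 0.0496 and 0.033 FPKM in heart, 9.17, 8.13 and 8.38 in liver and 0.229, 0.237 and 0.0508 in the libraries labelled kidney. Liver alone was above 1 FPKM, with a log2 difference of 3.21 ± 0.14 (SE, adjusted p = 1.01e-07) over heart. ENSBTAP00000011949 was lowest in liver, at 12.6, 9.08 and 10.1 FPKM in heart, 0.514, 0.338 and 0.555 in liver and 8.74, 7.47 and 8.85 in the libraries labelled kidney, with a log2 difference of 2.98 ± 0.18 (SE, adjusted p = 8.71e-07) for heart over liver. RSK kinases are targets of the ERK type MAP kinases. ENSP00000363277 of that family was at 1.21, 1.53 and 1.67 FPKM in heart, 2.35, 1.77 and 3.46 in liver and 34.3, 33.5 and 44.2 in the libraries labelled kidney. The labelled kidney libraries did not overlap with any other, and the log2 difference was 3.95 ± 0.22 (SE, adjusted p = 7.22e-07) over heart. Among the ERK kinases ENSBTAP00000021507 was the most abundant, with means of 38.6, 12.1 and 31.6 FPKM. The JNK kinases ENSBTAP00000006181 and ENSBTAP00000010361 had tissue means between 5.24 and 9.87 FPKM. ENSBTAP00000006181 was called higher in heart than in liver, with a log2 difference of 0.81, and was elevated in heart under median-ratio scaling only.

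Calmodulin senses calcium. By motif, 11 kinases were grouped as calmodulin type, among them 3 doublecortin-like models. Of the 9 tested, 4 were elevated in heart (14.5% of all models were) and 4 in the libraries labelled kidney (34.2%). Of these 4 and 1 were elevated under median-ratio scaling, beside 19.5% and 16.6% of all models. CaMKII acts on the calcium channels and pumps of heart muscle. The CaMKII model ENSP00000425824 had the highest heart mean of all kinases, at 91.7, 109 and 98.3 FPKM in heart, 5.69, 5.12 and 5.25 in liver and 23.4, 19.3 and 15.7 in the libraries labelled kidney. Every heart library exceeded every other library by a wide margin, with a log2 difference of 3.99 ± 0.19 (SE, adjusted p = 1.61e-07) over liver and a log2 difference of 2.31 ± 0.19 (SE, adjusted p = 7.23e-06) over the labelled kidney. ENSP00000258682 of the same family was at 14.7, 17.1 and 19.1 FPKM in heart, 1.84, 0.646 and 1.26 in liver and 0.12, 0.135 and 0.0308 in the libraries labelled kidney. Heart was again above the rest, with a log2 difference of 4.03 ± 0.22 (SE, adjusted p = 6.01e-07) over the labelled kidney. ENSP00000410298 went the other way, with means of 1.91, 2.53 and 12.5 FPKM and a log2 difference of 2.23 ± 0.21 (SE, adjusted p = 1.92e-05) for the labelled kidney over heart. The catalytic regions of 2 pairs of CaMKII models were at least 95% identical in protein sequence. Nucleotide sequences were not compared, so whether reads were shared between these models is unknown.

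Phosphorylase kinase starts the breakdown of glycogen. ENSBTAP00000010780 was at 12.8, 11.3 and 15 FPKM in heart, 2.31, 1.65 and 0.71 in liver and 3.52, 2.3 and 3.1 in the libraries labelled kidney, so that heart did not overlap with liver or the labelled kidney, with a log2 difference of 2.5 ± 0.26 (SE, adjusted p = 3.92e-05) over liver. The other phosphorylase kinase, ENSBTAP00000004433, was elevated in the labelled kidney with means of 9.22, 6.82 and 17.2 FPKM, a call lost under median-ratio scaling. The doublecortin-like kinase ENSP00000303887 was among the 8 kinases most elevated in heart, with means of 3.12, 0.218 and 0.58 FPKM. AMPK is the sensor of low cellular energy, and its 2 alpha subunits differed in tissue. ENSBTAP00000024965 was at 21.3, 15.5 and 14.4 FPKM in heart, 11, 6.79 and 4.87 in liver and 0.906, 0.746 and 0.405 in the libraries labelled kidney. It was highest in heart and lowest in the labelled kidney, with a log2 difference of 3.41 ± 0.28 (SE, adjusted p = 8.08e-06) over the labelled kidney and a log2 difference of 1.12 ± 0.28 (SE, adjusted p = 0.00853) over liver, although the call over liver was lost under median-ratio scaling. ENSP00000346148 had means of 7.8, 6.76 and 13.8 FPKM, and its log2 difference of 0.76 ± 0.22 (SE, adjusted p = 0.013) over heart was also lost under that scaling.

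The salt-inducible kinase ENSP00000305976, which controls transcription of genes for glucose production in liver, was at 1.46, 3.24 and 2.83 FPKM in heart, 12, 29.7 and 14.8 in liver and 8.94, 8.74 and 10.1 in the libraries labelled kidney. Liver exceeded heart with a log2 difference of 2.43 ± 0.33 (SE, adjusted p = 0.000226).

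Kinases of cell division numbered 11, all tested. Of these 9 were elevated in the libraries labelled kidney (34.2% of all models were), 1 in liver (9.59%) and none in heart (14.5%). After median-ratio scaling 5 were elevated in the labelled kidney, beside 16.6% of all models. The median difference was 1.8 for labelled kidney minus heart and 1.39 for labelled kidney minus liver. Both aurora kinases, which build the mitotic spindle, were at low levels outside the labelled kidney. ENSBTAP00000002250 had means of 0.0225, 0.123 and 4.52 FPKM in heart, liver and the labelled kidney, and ENSP00000379245 had means of 0.835, 0.219 and 5.39 FPKM. All 4 NEK kinases were elevated in the labelled kidney, with means there of 1.89 to 4.09 FPKM, and 1 of them was also elevated under median-ratio scaling. The polo kinase ENSBTAP00000022307 was an exception, elevated in no tissue with means of 30.7, 16.3 and 25.8 FPKM.

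The checkpoint kinase ENSBTAP00000023380, of a family that halts the cell cycle after DNA damage, was at 0.32, 0.203 and 0.615 FPKM in heart, 18.8, 11.8 and 19.8 in liver and 3.62, 5.36 and 2.77 in the libraries labelled kidney. The liver libraries were above all others, with a log2 difference of 3.67 ± 0.26 (SE, adjusted p = 2.98e-06) over heart. Cyclin dependent kinases, which drive the cell cycle and transcription, gave 13 members, of which 12 were tested. Under the deposited scaling 5 were elevated in the labelled kidney (34.2% of all models were), 1 in heart (14.5%) and none in liver. Under median-ratio scaling these numbers became 2, 3 and 1, where 16.6%, 19.5% and 15.4% of all models were elevated. ENSBTAP00000053788 was the member with the largest difference between heart and liver, at 7.11, 6.52 and 8.95 FPKM in heart, 0.202, 0.385 and 1.04 in liver and 6.76, 9.26 and 5.75 in the libraries labelled kidney, so that liver was the lowest, with a log2 difference of 2.49 ± 0.25 (SE, adjusted p = 3.14e-05). The member elevated in heart, ENSBTAP00000022303, had means of 28.9, 9.37 and 16 FPKM.

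STE20 type kinases act on the cytoskeleton, cell volume and growth control. Of 20 members 18 were tested, and 12 were elevated in the libraries labelled kidney (34.2% of all models were) and 1 in heart (14.5%). After median-ratio scaling 8 were elevated in the labelled kidney, 3 in heart and 1 in liver, beside 16.6%, 19.5% and 15.4% of all models. The MST kinases are the starting kinases of the Hippo pathway and its relatives. ENSBTAP00000026189 was at 3.55, 3.49 and 4.01 FPKM in heart, 1.66, 1.05 and 1.28 in liver and 41, 28.7 and 18.5 in the libraries labelled kidney, with liver lowest and a log2 difference of 3.64 ± 0.27 (SE, adjusted p = 4.13e-06) for the labelled kidney over liver. ENSBTAP00000004221 followed with means of 2.56, 4.93 and 46.8 FPKM and a log2 difference of 3.71 ± 0.26 (SE, adjusted p = 3.09e-06) over heart. In contrast, ENSBTAP00000037040 was among the 5 kinases with the smallest range of tissue means on the deposited scaling (7.07, 10.2 and 10.5 FPKM), but it was elevated in liver under median-ratio scaling. ENSP00000263881 was another of those 5, with means of 10.4, 13.2 and 9.68 FPKM. The PAK kinase ENSP00000314067, a target of small GTPases, was among the 8 kinases with the highest mean, at 22.3, 22.9 and 53.5 FPKM.

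Kinases that sense stress included 4 of the family that phosphorylates eIF2 alpha and so stops translation. ENSBTAP00000011469 of that family had 1.8, 23.4 and 28.9 FPKM in heart, 9.85, 57.2 and 72.6 in liver and 9.94, 84.9 and 109 in the libraries labelled kidney. Replicate 1 was the lowest in every tissue, and the groups overlapped. Without the replicate number in the fit, the adjusted p was 0.32 for heart against liver, 0.184 for heart against the labelled kidney and 0.79 for liver against the labelled kidney. With the replicate number as a block, the adjusted p was 0.000236, 5.95e-05 and 0.0897, with the same differences of 1.5 for liver minus heart, 1.88 for labelled kidney minus heart and 0.38 for labelled kidney minus liver, the last of which changed sign under median-ratio scaling.

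Among the other families, casein kinase 1, a family of broad housekeeping roles, had 1 abundant member, ENSP00000385776, with means of 45.3, 34.2 and 50.6 FPKM. The MAST kinase ENSBTAP00000033207, of a family that binds microtubules, was at 11.5, 18.8 and 21 FPKM in heart, 2.29, 4.43 and 3.99 in liver and 3.72, 4.83 and 4.1 in the libraries labelled kidney, with a log2 difference of 1.76 ± 0.27 (SE, adjusted p = 0.000418) for heart over the labelled kidney. Of the 8 kinases of AGC type (MAST, MRCK, NDR and LATS), which share a fold with protein kinases A and C, 7 were tested, with 1 elevated in heart, none in liver and 3 in the labelled kidney (2, 1 and 1 under median-ratio scaling). The shares of all models were 14.5%, 9.59% and 34.2% (19.5%, 15.4% and 16.6% under median-ratio scaling). The 2 GSK3 kinases, which act on glycogen synthase among many targets, included 1 elevated in the labelled kidney, as did the 2 ULK kinases that start autophagy and the 4 MARK kinases that loosen microtubules, and none of these 3 was elevated under median-ratio scaling. Of the 3 AAK1 and GAK kinases, which act on clathrin coats, 2 were elevated in the labelled kidney (1 under median-ratio scaling). Of the 2 tau tubulin kinases 1, ENSP00000259750, was elevated in liver under both scalings, at low levels of 0.936, 0.736 and 0.727 FPKM there. It passed the filter on low values through the liver libraries alone. Of the 31 kinases without a family 26 were tested, with 4 elevated in heart, 1 in liver and 10 in the labelled kidney, beside 14.5%, 9.59% and 34.2% of all models. Under median-ratio scaling 4, 2 and 5 of them were elevated, beside 19.5%, 15.4% and 16.6% of all models. The highest of them in heart, ENSP00000364361 (loop HRDLKSRN), was at 32.2, 30.1 and 28.8 FPKM in heart, 1.94, 1.23 and 1.65 in liver and 5.42, 8.27 and 7.12 in the libraries labelled kidney. Its heart libraries were above all others, with a log2 difference of 3.6 ± 0.2 (SE, adjusted p = 4.27e-07) over liver. ENSBTAP00000013805 was elevated in heart at a lower level (means 3.68, 0.986 and 0.235 FPKM), and ENSBTAP00000022739 (loop HRDLKSPN) was elevated in liver (0.324, 5.04 and 0.989 FPKM). ENSP00000261845 was among the 8 kinases with the highest mean (14.9, 37 and 42.5 FPKM), and ENSP00000384625 was among the 5 with the smallest range (11.5, 13.4 and 9.09 FPKM).

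**Figure D4:**
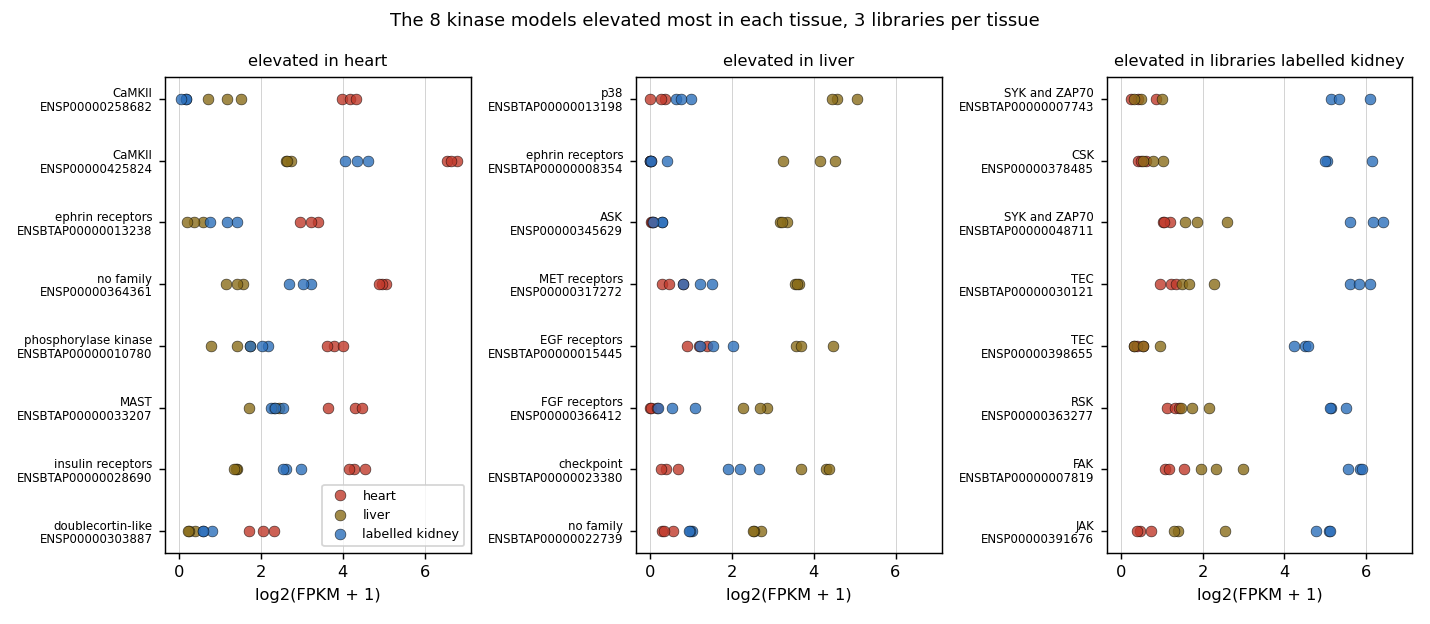
The 8 kinases most elevated in heart, in liver and in the libraries labelled kidney are drawn in 3 panels, with each library as a point on a log2(FPKM + 1) axis and colours for the tissues. In the right panel 7 of the 8 are cytoplasmic tyrosine kinases, in the middle panel 4 are receptor tyrosine kinases, and in the left panel 2 are CaMKII models.

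Close relatives did not always share a tissue. The catalytic regions of the kinases were aligned with each other, and 25 pairs were each other's closest relative at 80% identity or more, of which 20 had both members tested. In 10 of these 20 the highest tissue mean was in different tissues. That count compares means without a test, and some means were close. In the TIE pair, where neither member was elevated, ENSP00000361554 had means of 7.06 FPKM in heart and 9.19 in the labelled kidney. For ENSP00000383977 these means were 11.8 and 10.7 FPKM. Both members were elevated in the same tissue in 6 pairs, in 2 different tissues in 3 pairs, only 1 of them was elevated in 7 pairs and neither in 4 pairs. These counts used the deposited scaling and were not made for unrelated pairs.

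The 3 pairs elevated in different tissues were ABL, AMPK and CDK kinases. The ABL kinases were 91% identical, with ENSBTAP00000023920 elevated in heart and ENSP00000427562 in the labelled kidney (means 0.911, 1.1 and 3.06 FPKM). The AMPK alpha subunits given above were 89% identical, and the CDK pair of ENSBTAP00000022303 and ENSBTAP00000001977 (means 5.31, 3.54 and 14.3 FPKM) was 81.3% identical. Of these 3 pairs, the CDK pair alone was elevated in different tissues also under median-ratio scaling. Among pairs with only 1 member elevated, the ASK kinases ENSP00000345629 and ENSBTAP00000011949 were 80.2% identical and were highest in liver and heart. The MST kinases ENSBTAP00000004221 and ENSBTAP00000037040 were 94.95% identical, yet the labelled kidney mean was 46.8 FPKM for the former and 10.5 for the latter. These identities are of protein sequence, and how reads were divided between the members of such pairs was not tested.

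**Figure D5:**
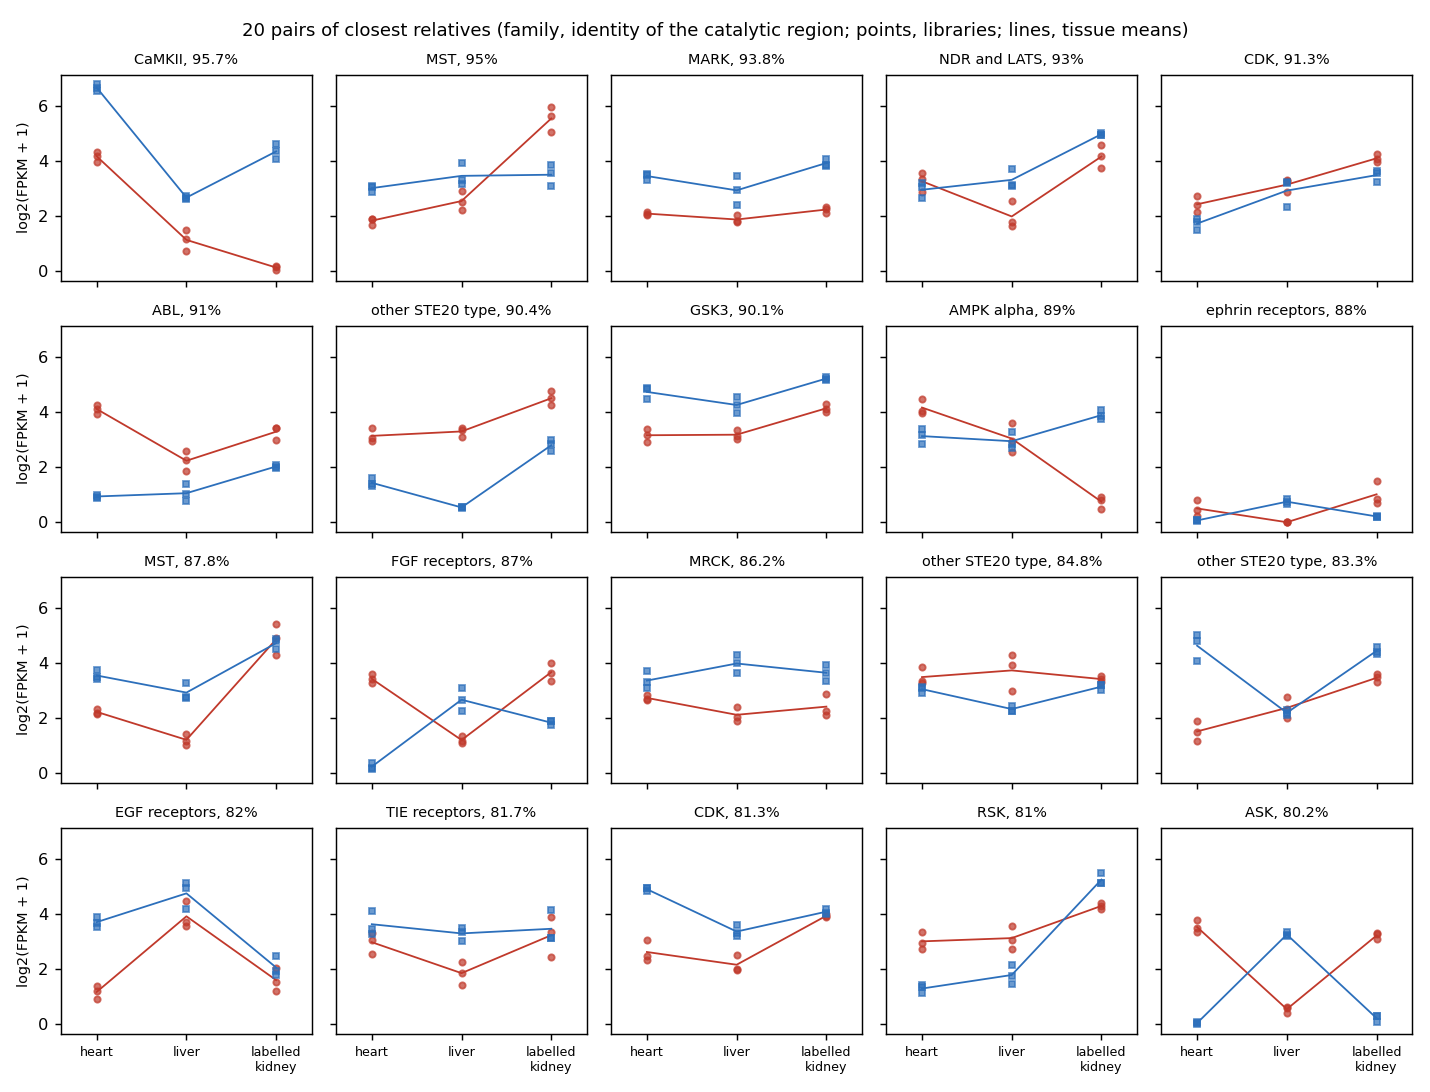
Each of 20 panels shows a pair of closest relatives with both members tested, with the family and the percent identity of the catalytic region above it, tissues on the horizontal axis and log2(FPKM + 1) on the vertical axis; points are libraries, lines join tissue means, and circles and squares mark the 2 members. The lines of 10 pairs peak in different tissues, among them ABL (91%), AMPK alpha (89%) and ASK (80.2%).

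The kinases lay on 153 scaffolds, and 5 pairs lay within 100000 bases of each other. The p38 kinases ENSBTAP00000013198 (scaffold 714, 1330036 to 1338075, minus strand) and ENSBTAP00000023988 (scaffold 714, 1354030 to 1398351, minus strand) were 15954 bases apart on the same strand and 65% identical in the catalytic region. The former had means of 0.166, 25.4 and 0.755 FPKM in heart, liver and the labelled kidney, and the latter had means of 25.1, 48.1 and 50.2 FPKM. The TEC kinases ENSP00000264316 and ENSP00000370912 were 22430 bases apart on scaffold 94, on the same strand and 69.7% identical. ENSP00000264316 had means of 0.241, 0.565 and 13.1 FPKM, with a log2 difference of 3.5 ± 0.2 (SE, adjusted p = 8.77e-07) for the labelled kidney over heart. ENSP00000370912 had its highest mean in heart, but was not called higher there than in the labelled kidney on the deposited scaling. The polo kinase ENSBTAP00000019217 (means 0.845, 1.05 and 7.4 FPKM) and the kinase ENSBTAP00000019220 (1.3, 0.323 and 0 FPKM) were 379 bases apart on opposite strands of scaffold 239.

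The 22 kinases that did not pass the filter were at low levels in all tissues. Of these 17 exceeded 0.5 FPKM in no library, and 2 casein kinase 1 models, ENSBTAP00000048708 and ENSBTAP00000048989, were listed at 0 in all 9 libraries. Of the 188 kinases, 34 were listed at 0 in at least 1 library. The untested kinases included 8 of the 32 receptor tyrosine kinases and none of the 20 cytoplasmic tyrosine kinases. Because the files hold no counts, no lower limit of detection can be set for them.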

How the data were processed

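RNA of 9 goat libraries (3 each of heart, liver and tissue labelled kidney) was prepared with the TRIzol reagent and a strand-specific dUTP protocol per the labels. The study's methods state that the authors aligned reads with Tophat to the goat genome and estimated FPKM with Cufflinks, for which the submitters' notes give version 2.2.1. The deposited table holds log2(FPKM + 1) values that the authors computed, and FPKM are given here after undoing the logarithm. The notes and the methods name different genome builds for these samples. Proteins were taken from the deposited goat protein set, in which 18216 of 18260 entries matched a model with values.

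Tests used the deposited log2 scale, and differences on it understate the change of low models. Models above 0.5 FPKM in at least 3 of 9 libraries were tested with limma 3.58.1 in R 4.3.3 (tissue as the only term, mean-variance trend, Benjamini-Hochberg adjustment over 13634 models within each comparison, threshold 0.05), all 9 libraries sharing 1 estimate of spread. Shares were tested with an exact permutation test in scipy 1.17.1. The fit was tested on simulated data. Catalytic regions (150 residues before the loop to 150 after it) were aligned globally with Biopython 1.88. Read counts were not given, so depth and counting error are unknown.

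Replicate numbers are in the labels. Deviations from the tissue means correlated at 0.146 to 0.472 in the 9 pairs of libraries with the same number and at -0.417 to 0.134 in the 18 pairs with different numbers. The numbers were therefore taken to pair the samples, and a fit with the replicate number as a block was run beside the unblocked fit.

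The kinases, their lists and the tests were chosen with earlier results of these data known. Named kinases are the 8 with the largest absolute differences in each direction of each comparison (groups not overlapping, mean of at least 1 FPKM in the higher tissue), the 8 most elevated in each tissue, the 8 with the highest mean, and the 5 with the smallest range of tissue means among those at or above 5 FPKM in every library. All of these rankings used the deposited scaling. Other members were named to complete a family or pair after their values were seen. Lists of kinase and cell type marker symbols could not be applied, because the models are not paired with symbols, and protein motifs were used in their place. Alternatives were a pseudocount of 0.1, median-ratio scaling, quantile normalization, other filters on low values, a minimum effect, the replicate block and the omission of each library. A fit on the heart and liver libraries alone and the sign flips of paired shares were added after seeing the data.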

Additional observations from a re-analysis of the deposited data

How the results depend on the processing

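Kinases called between heart and liver numbered 77 and fell to 49 when an absolute log2 difference of at least 1 was also required; with the other alternatives all 3 counts of called kinases stayed within 1.5 times. Elevated kinases were more sensitive. Median-ratio scaling gave 26 in heart, 25 in liver and 39 in the labelled kidney, against 16, 16 and 76 with the deposited scaling. Quantile normalization gave 28 in heart and 45 in the labelled kidney, and the stricter filter used by the study (over 80% of the libraries above 0.5 FPKM) gave 10 in heart and 5 in liver, with fewer kinases tested.

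Leaving out each library in turn gave 63 to 81 called kinases for heart against liver, 101 to 112 for heart against the labelled kidney and 116 to 130 for liver against the labelled kidney. Elevated kinases then numbered 15 to 16 in heart, 15 to 18 in liver and 65 to 78 in the labelled kidney. The difference in summed kinase share (percent of FPKM) ranged from -0.0517 to -0.0276 for heart minus liver, from -0.262 to -0.218 for heart minus labelled kidney and from -0.225 to -0.181 for liver minus labelled kidney.

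With the replicate block 89, 115 and 136 kinases were called in the 3 comparisons (53.6%, 69.3% and 81.9% of those tested), where 56.5%, 69.3% and 70.9% of all models were, and 16, 18 and 80 were elevated in heart, liver and the labelled kidney. Of the 76 differences examined kinase by kinase, the block changed the call of 2, both of ENSBTAP00000011469. The difference of that kinase for liver minus labelled kidney reversed, to 0.48 under median-ratio scaling, 0.063 under quantile normalization and 0.05 to 0.48 without liver replicate 1 or labelled kidney replicate 2 or 3, with adjusted p of 0.743 to 0.981 (limma). Over all omitted libraries that difference ranged from -1.43 to 0.48. Without labelled kidney replicate 1 its heart difference from the labelled kidney passed the threshold. The call of the AMPK alpha subunit ENSP00000346148 over heart was lost without labelled kidney replicate 2, and its calls over heart and liver were lost under both scalings. The causes were not tested.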

Other observations

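A further 54 goat proteins held a related loop that the kinase rule did not take, with YRD in place of HRD (23), R after HRDL (7) or V or M in place of L or I (24). Of these 50 were tested, with 28 elevated in the libraries labelled kidney, 3 in liver and 3 in heart (limma, adjusted p at 0.05), beside 34.2%, 9.59% and 14.5% of all models tested. Under median-ratio scaling the numbers were 15, 5 and 7, beside 16.6%, 15.4% and 19.5% of all models. The loop with R, typical of the SRC family of cytoplasmic tyrosine kinases, was found in 7 models, of which 6 were elevated in the libraries labelled kidney and 1 in liver (5 and 1 under median-ratio scaling). ENSBTAP00000026686 of this form had means of 4.25, 22.9 and 119 FPKM in heart, liver and the labelled kidney, and ENSP00000365012 had means of 0.569, 3.83 and 44.5 FPKM.

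The 2 copies that were left out were not tested. ENSBTAP00000053704-D2 was at 0.3, 0.669 and 0.396 FPKM in heart, listed at 0 in the 3 liver libraries, and at 1.58, 2.37 and 1.89 FPKM in the libraries labelled kidney. ENSP00000342235-D2 was at 1.04, 1.26 and 0.986 FPKM in heart, at 0, 0 and 0.0162 in liver, and at 0.0819, 0 and 0.238 in the libraries labelled kidney.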
